A study of Mus musculus with 194 samples.

Results

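Transposon insertions recovered by TRAP from the forebrain of 4 Rbp4Cre mice were compared with insertions from the cortex of 6 Syn1Cre mice. The Rbp4Cre TRAP animals were the replicates whose labels give Rbp4Cre and TRAP, which is 8 of the 194 GEO samples of the series and 4 of its 47 deposited insertion tables. The Syn1Cre animals were the replicates labelled Syn1Cre with cortex as the source, which is 27 samples and 6 tables. All mice of both groups received AAV at postnatal day 0 to 1, per the labels' protocols, and the labels give no age at collection and no transposase. Rbp4Cre is a driver line used to express Cre in pyramidal neurons of cortical layer 5, while Syn1Cre is used to reach neurons of many types. TRAP is usually read as translating ribosome affinity purification, the isolation of RNA bound to tagged ribosomes of chosen cells. The labels name neither the ribosomal tag nor the cells that carried it. The source of the TRAP libraries was whole forebrain, with 2 libraries for each animal. The labels' protocols give up to 10 pieces for a cortex, with RNA isolated from each piece, and each of the 27 Syn1Cre samples holds barcoded pieces of 2 or 3 animals. Line, tissue, TRAP and number of libraries therefore differ together between the groups, and their contributions cannot be told apart.

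In calling cards a transposase writes a transposon into TTAA sites, and the insertions left behind record where it could reach the genome. The piggyBac transposase, which uses TTAA sites, is known to favour active enhancers when it carries no fused DNA-binding protein, so that insertions pile up around the genes that set a cell's identity. With a self-reporting transposon the insertion is read from RNA that runs out of the transposon into the flanking genome. In the cortex, projection neurons of each layer are set apart by transcription factors such as Fezf2 and Bcl11b in layer 5, Tbr1 in layer 6 and Cux1 and Cux2 in the upper layers. Interneurons descend from the ventral forebrain, where Dlx genes act, and astrocytes carry Sox2.

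An insertion was counted as 1 row of a deposited table on chromosomes 1 to 19, and the animal was the replicate. The TRAP animals held 55841, 49349, 39321 and 23927 insertions (animals 1 to 4), and the Syn1Cre animals 432664 to 1332946. The mean of log10 insertions per animal was 4.60 for TRAP and 5.93 for Syn1Cre, with no overlap (p = 0.00952 by an exact permutation test, two-sided, or 0.0127 after adjustment over 4 such tests). That p is the smallest that the 210 divisions of the 10 animals allow. A TRAP insertion rested on 2.06 to 2.46 reads on average and a Syn1Cre insertion on 3.00 to 20.8 reads. Levels below are insertions per 1000000 insertions of the same animal on chromosomes 1 to 19, written CPM (counts, here of insertions, per that number), a scale on which 1 TRAP insertion is worth 17.9 to 41.8. The median tested gene locus held 6 insertions over the 4 TRAP animals and 188 over the 6 Syn1Cre animals. Syn1Cre animal 5 stood apart from the other Syn1Cre animals: it had the fewest insertions, and 0.787% of them lay at the astrocyte loci described below, against 0.290% to 0.375% in the other 5.

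Over all loci, the comparison asked which genes carried more or fewer insertions in the TRAP animals. A locus is a protein-coding gene with 10 kb on each side in GRCm38. With the quasi-likelihood test of edgeR and TMM scaling, 215 of 10420 loci passed an adjusted p of 0.05, or 2.06%. Of these 18 were higher in TRAP (0.173% of the loci) and 197 were lower (1.89%). TMM shifted the sparse TRAP tables against the deep ones: the median log2 fold change over all loci was -0.31 with TMM and -0.07 with scaling by total insertions, so each change is to be read against that median. With total insertions 127 loci passed (1.22%), 54 higher (0.518%) and 73 lower (0.701%). All 18 higher loci of the TMM fit were among those 54, and the 73 lower loci were all among its 197. With each Syn1Cre animal thinned to 42110 insertions, the mean TRAP depth, 639 loci had enough insertions to test and 110 passed (17.2%), 49 higher (7.67%) and 61 lower (9.55%). Against Syn1Cre animals 1 to 3 alone 160 of 799 loci passed (20.0%), 88 higher (11%) and 72 lower (9.01%), and against animals 4 to 6, whose labels have another layout, 219 of 812 (27%), 114 higher (14.0%) and 105 lower (12.9%). Without Syn1Cre animal 5, 474 loci passed, and all 215 were among them. The count fell to 120, 98 and 101 without TRAP animals 2, 3 and 4, and to 135, 95 and 90 without Syn1Cre animals 2, 4 and 6. The number of higher loci was 8, 4, 5 and 8 without TRAP animals 1 to 4. Of the 18 higher loci of the full fit, 8, 3, 5 and 6 were among these. Without Syn1Cre animals 1, 3 and 5 the number of higher loci was 34, 28 and 29. In each of the leave-one-out fits none of the 215 loci changed sign.

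Layer 5 loci carried a larger share of insertions in the TRAP animals. Pooled over 19 loci of layer 5 genes, the share was 0.321%, 0.320%, 0.346% and 0.410% in TRAP animals 1 to 4. In Syn1Cre the lowest, median and highest shares were 0.238%, 0.241% and 0.251%, so that the groups did not overlap. The mean shares were 0.349% ± 0.042 (SD, n = 4) and 0.242% ± 0.005 (SD, n = 6), a ratio of 1.44. Much of the pool came from few loci: Ldb2, Tshz2 and Fezf2 gave 193, 96 and 51 of the list's 571 TRAP insertions. In Syn1Cre they gave 3020, 1844 and 837 of 13151. The larger pooled share is therefore above all a statement about Ldb2, Tshz2 and Fezf2, and not about the list as a whole. Whether the pooled share of the other loci differed was not tested. What the larger share comes from was not tested. Number of cells, RNA per cell, line, tissue, TRAP and number of libraries cannot be told apart in these bulk samples. Of the 20 members of the list 16 were tested, 1 of them was called higher and none lower with TMM (0.173% of all loci were higher), and 3 were called higher with total insertions (0.518% of all loci). The median log2 fold change of the 16 was 0.27, and 11 of them lay above the median of all loci. Htr2c lies outside chromosomes 1 to 19, and Rbp4, Pou3f1 and S100a10 had too few insertions for the test. Rbp4, whose promoter drives Cre in these mice, held 3 insertions over the 4 TRAP animals and 37 over the 6 Syn1Cre animals.

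Ldb2 was the layer 5 locus past the threshold. It encodes a LIM domain-binding cofactor and lies at chr5:44435955-44799759. Its level was 931, 1094, 1297 and 1505 CPM in TRAP animals 1 to 4, and 485, 543 and 666 in the lowest, median and highest Syn1Cre animal. Every TRAP animal was therefore above every Syn1Cre animal. On the log2 scale the difference was 0.83 ± 0.15 (SE; edgeR quasi-likelihood, adjusted p = 0.0012), or 1.09 with total insertions, and it passed with each animal left out in turn.

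Fezf2 encodes the zinc finger factor that directs layer 5 neurons to project below the cortex, and lies at chr14:12338992-12346803 on the minus strand. TRAP animals 1 to 4 held 233, 304, 305 and 459.7 CPM there, from 51 insertions in all. Syn1Cre ranged from 120.2 to 184 with a median of 154, below every TRAP animal. The log2 fold change of 0.74 ± 0.23 (SE) missed the threshold with TMM (edgeR, adjusted p = 0.073) and passed it with total insertions (0.99, adjusted p = 0.019). Non-overlap of this direction was found at 420 of the 10420 loci, or 4.03%. Tshz2, a zinc finger gene, had 573, 547, 661 and 459.7 CPM in TRAP against 229 to 403 in Syn1Cre, and it too missed the threshold with TMM and passed it with total insertions (0.76, edgeR, adjusted p = 0.018).

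Bcl11b, the gene of the CTIP2 protein of subcortically projecting neurons, lies at chr12:107910403-108004145 and did not pass. Its levels were 501, 304, 407 and 543 CPM in TRAP animals 1 to 4 and 407 to 488 in Syn1Cre with a median of 448, so the groups overlapped. The log2 fold change was -0.30 ± 0.19 (SE) with TMM and -0.05 with total insertions, and its sign turned under other settings. The remaining tested layer 5 loci ran from Parm1 at 0.81 to Bcl6 at -1.67, and none of them passed. Animals 1 to 4 held 197, 142, 50.9 and 293 CPM at Parm1.

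**Figure D1:**
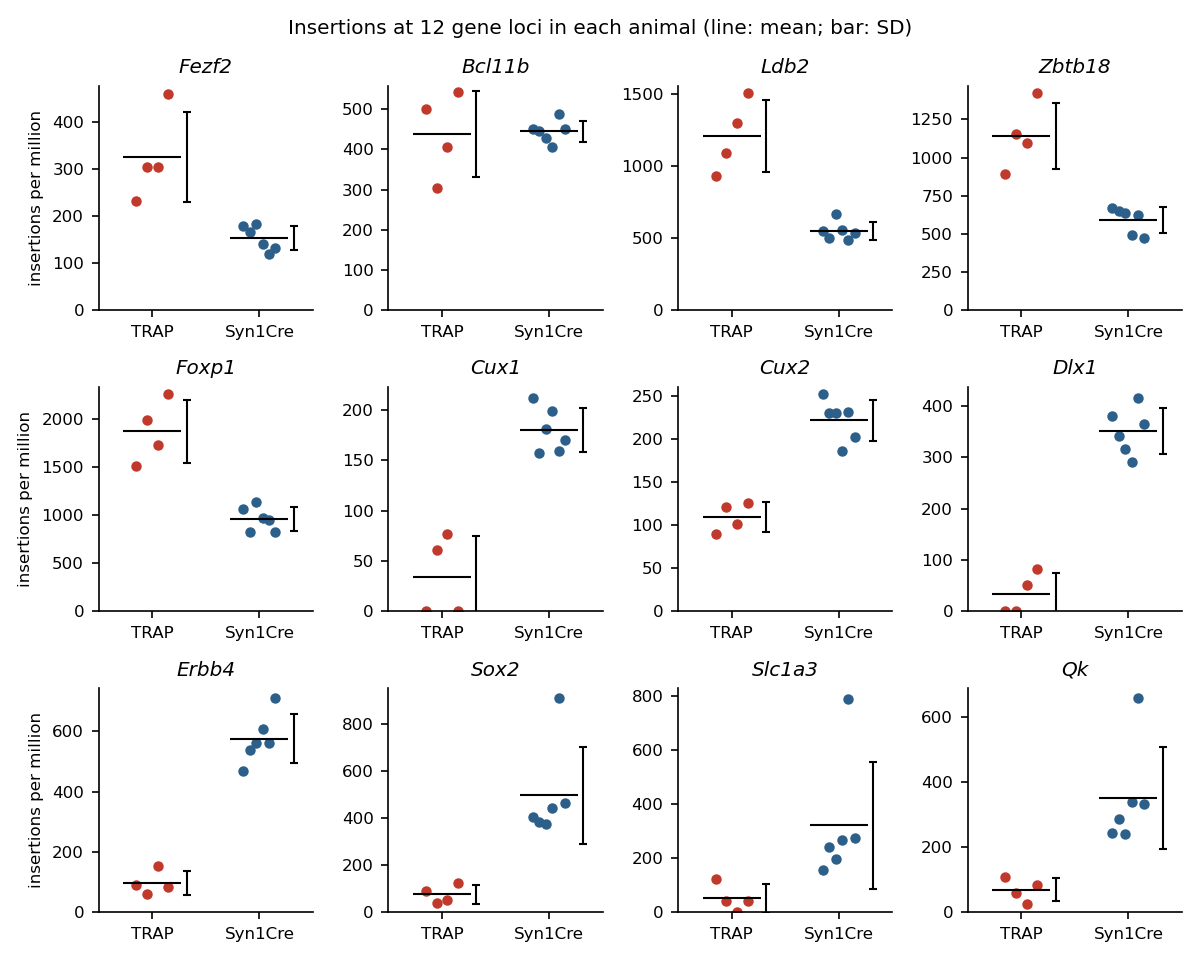
CPM at 12 gene loci, 1 point per animal, for 4 TRAP and 6 Syn1Cre animals; lines are means and bars SD. All TRAP points lie above the Syn1Cre points at Fezf2, Ldb2, Zbtb18 and Foxp1 and below them at Cux1, Cux2, Dlx1, Erbb4, Sox2, Slc1a3 and Qk, and the groups overlap at Bcl11b.

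Genes listed for projection neurons across layers showed the same direction as layer 5 when pooled. Their pooled share was 0.720% ± 0.075 (SD, n = 4) in TRAP and 0.519% ± 0.048 (SD, n = 6) in Syn1Cre, a ratio of 1.39 without overlap. All 14 members were tested, 3 were higher, against 0.173% of all loci, 1 was lower, against 1.89%, and 12 lay above the median of all loci. The 3 higher calls became 1, 0, 0 and 1 without TRAP animals 1 to 4. None was higher without the filter, with at least 2 reads, or with positions counted 5 or more times removed.

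Zbtb18, a transcriptional repressor that promotes excitatory neuron differentiation, had 895, 1155, 1094 and 1421 CPM in TRAP against 475 to 667 in Syn1Cre (log2 fold change 0.65, edgeR, adjusted p = 0.019). Bhlhe22, a bHLH factor of the same neurons, had 591, 547, 687 and 459.7 against 261 to 356 (0.69, edgeR, adjusted p = 0.037). Both lay above every Syn1Cre animal in each TRAP animal. The calls at Zbtb18 and Bhlhe22 were lost when positions counted 5 or more times in a Syn1Cre animal were removed (0.35 and 0.46), and when rows with 1 read were removed. Single animals also decided them: Zbtb18 missed the threshold without TRAP animal 2, 3 or 4 (adjusted p = 0.15, 0.10 and 0.10), and Bhlhe22 without TRAP animal 1, 2 or 3 (0.18, 0.16 and 0.23). Neurod1 missed the threshold with TMM and passed it with total insertions (0.94, edgeR, adjusted p = 0.047). Neurod2 and Neurod6, bHLH factors of excitatory neurons, did not pass, with log2 fold changes of 0.25 and 0.32. All 4 TRAP animals lay above all Syn1Cre animals at both, as they did at 4.03% of all loci.

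Nr4a2 was the member that was lower. This nuclear receptor marks claustrum and deep subplate-derived neurons, so not every member of the list is shared by all layers. It held 17.9, 40.5, 76.3 and 125 CPM in TRAP and 121 to 169 in Syn1Cre, which overlap at 1 TRAP animal (log2 fold change -1.68 ± 0.39 (SE), edgeR, adjusted p = 0.016). With total insertions it no longer passed (-1.43, adjusted p = 0.060), nor without TRAP animal 1 or 2 (-1.38 and -1.64).

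Layer 6 loci had a pooled share of 0.428% ± 0.035 (SD, n = 4) in TRAP and 0.341% ± 0.018 (SD, n = 6) in Syn1Cre, a ratio of 1.25 without overlap, and 0 of the 10 tested members passed with edgeR under either scaling. DESeq2 called 0 as well. With edgeR 3 members had an unadjusted p under 0.05 with total insertions and 0 with TMM. With the thinned Syn1Cre animals 1 of 4 tested members was higher, against 7.67% of all loci in that fit, and 2 of 4 against Syn1Cre animals 1 to 3 (11% of loci) or 4 to 6 (14.0%) alone. The loci with the most insertions were Sox5, a SoxD factor of deep-layer neurons, and Zfpm2, a GATA cofactor. Sox5 held 2238, 2026, 2162 and 1714 CPM in TRAP against 1419 to 1658 in Syn1Cre, and Zfpm2 877, 952, 1094 and 878 against 543 to 789. At both, every TRAP animal exceeded every Syn1Cre animal, as at 4.03% of all loci, while the log2 fold changes with TMM were 0.14 and 0.18. Tbr1, the T-box factor of corticothalamic neurons, overlapped between the groups.

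The loci of layers 2 to 4 split by gene. Their pooled share was 0.298% ± 0.030 (SD, n = 4) in TRAP and 0.297% ± 0.035 (SD, n = 6) in Syn1Cre, a ratio of 1.01 with overlap, or 1.06 without Syn1Cre animal 5. Of 13 tested members 2 were lower (1.89% of all loci were), none was higher, and both lower members were Cut homeobox factors of upper-layer neurons. Cux1 held 0, 60.8, 76.3 and 0 CPM in TRAP, from 6 insertions in all, against 157, 175 and 212 in the lowest, median and highest Syn1Cre animal (log2 fold change -2.57 ± 0.45 (SE), edgeR, adjusted p = 0.00068). Cux2 held 89.5, 122, 102 and 125 against 186 to 252 (-1.28 ± 0.28 (SE), edgeR, adjusted p = 0.0081). The groups did not overlap at either locus, and such non-overlap below Syn1Cre was found at 731 of all loci tested, or 7.02%. When Syn1Cre animal 5 was left out, 4 members were lower, against 445 of 11420 loci. With distinct positions 4 members were higher and 3 lower, against 120 and 376 of 8611 loci. Against Syn1Cre animals 1 to 3 alone 2 of 7 were higher, as were 11% of loci. With total insertions Cux1 passed and Cux2 did not (-1.04, edgeR, adjusted p = 0.061). Rorb, the nuclear receptor of layer 4, did not pass, with 1057, 932, 992 and 1003 CPM in TRAP and 552 to 1019 in Syn1Cre.

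**Figure D2:**
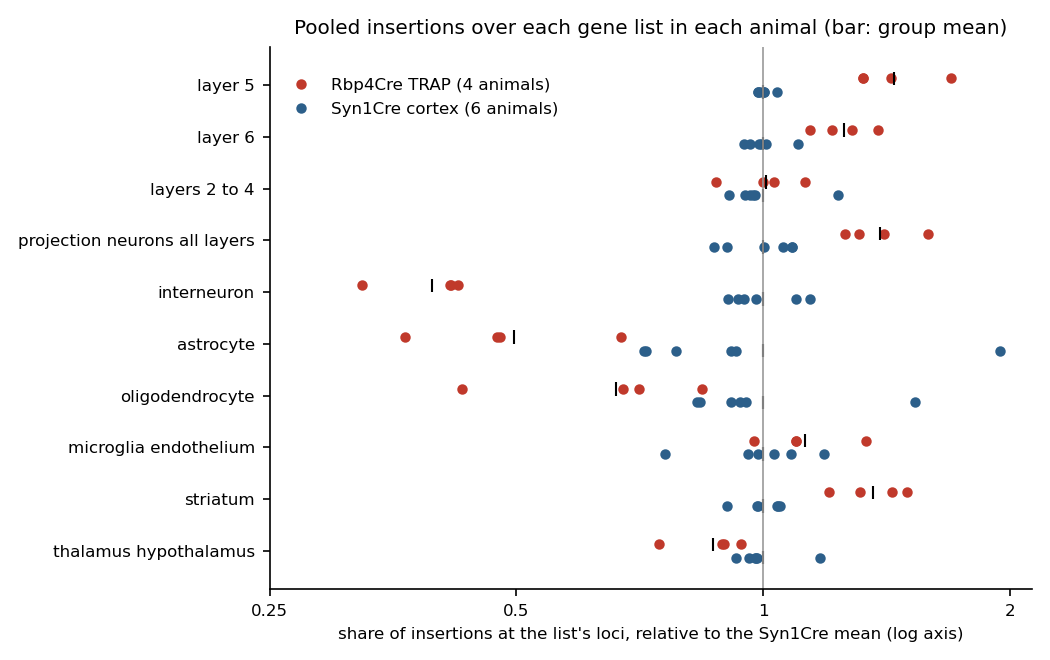
Share of each animal's insertions at the loci of 10 gene lists, divided by the Syn1Cre mean of the list (log axis); points are 4 TRAP and 6 Syn1Cre animals and bars the group means. TRAP points lie to the right of all Syn1Cre points for layer 5, layer 6, projection neuron and striatum lists and to the left for interneuron and astrocyte lists.

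Interneuron loci carried fewer insertions in the TRAP animals. The pooled share was 0.163% ± 0.020 (SD, n = 4), with 0.172%, 0.134%, 0.175% and 0.171% in animals 1 to 4, against 0.413% ± 0.039 (SD, n = 6) in Syn1Cre, where it ran from 0.374% to 0.471%. The ratio was 0.395 and the groups did not overlap. Of 28 members 22 were tested, 11 were lower with TMM (9 with total insertions) and none was higher, against 1.89% of all loci lower with TMM. Of the others 1 lies outside chromosomes 1 to 19, and Npy, Vip, Pvalb, Htr3a and Npas1 had too few insertions for the test. The median log2 fold change of the 22 was -2.92, or -2.11 with the 7 loci that had no TRAP insertion set at their bound. Those 7 loci passed the filter on low counts through Syn1Cre alone and could only come out lower. Loci with insertions in only some TRAP animals, such as Dlx1 and Dlx6, also needed Syn1Cre counts to be tested. The count of 11 therefore leans on that filter. Dlx2, Dlx5, Sp9, Maf and Gad1 were among them and among the 11 called. Without Syn1Cre animal 5 the ratio was 0.406, and 15 members were lower, against 445 of 11420 loci.

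The Dlx homeobox genes direct interneuron formation, and Dlx1, Dlx2, Dlx5 and Dlx6 were lower in TRAP. Dlx1 lies at chr2:71528113-71533981 and held 0, 0, 50.9 and 83.6 CPM in TRAP animals 1 to 4, from 4 insertions, against 290.3, 354 and 416 in the lowest, median and highest Syn1Cre animal. This is a log2 fold change of -4.10 ± 0.44 (SE) with an adjusted p of 2.0e-07 by edgeR. Dlx2 and Dlx5 had no insertion in any TRAP animal and 580 and 591 in Syn1Cre. Against a floor of 3 insertions over the 4 TRAP animals, which is 17.8 CPM, they were at least 6.22-fold and at least 6.11-fold lower. Dlx6 held 1 TRAP insertion, in animal 3, and 191 to 240.4 CPM in Syn1Cre, a ratio of 36.0 with a 95% counting interval of 6.46 to 1421. Dlx1 and Dlx2 lie next to each other and their flanked loci overlap by 10574 bp, and those of Dlx5 and Dlx6 by 10170 bp, so each pair shares insertions. Intervals and floors cover counting error only.

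Sp9, a zinc finger factor of ganglionic eminence derived neurons, and Maf, a factor of medial eminence derived interneurons, had no TRAP insertion and were at least 5.32-fold and at least 3.12-fold lower. Sox6, a SoxD factor of parvalbumin and somatostatin interneurons, held 179, 101, 76.3 and 83.6 CPM in TRAP and 452 to 1225 in Syn1Cre, with a median of 576. It was lower by a log2 fold change of -2.74 ± 0.39 (SE; edgeR, adjusted p = 2.4e-05), or -2.50 without Syn1Cre animal 5, which held the highest value. Nr2f2, a nuclear receptor of caudal eminence derived interneurons, held 125, 203, 229 and 83.6 against 238 to 347 and passed with TMM (-1.02, edgeR, adjusted p = 0.034) but not with total insertions (-0.78, adjusted p = 0.14). Nr2f2 was also lost without TRAP animal 1 or 4 and without Syn1Cre animal 2, 4 or 6 (-0.97, -0.93, -0.89, -0.94 and -0.90). Lhx6, with no TRAP insertion and 158 in Syn1Cre, did not pass. Satb1, a chromatin factor, did not pass either, at 752, 628, 661 and 961 CPM in TRAP and 631 to 799.7 in Syn1Cre, with overlap.

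Erbb4, the neuregulin receptor, lies at chr1:68031884-69108576 and held 89.5, 60.8, 153 and 83.6 CPM in TRAP against 468, 562 and 711 in the lowest, median and highest Syn1Cre animal. That is -2.84 ± 0.28 (SE) on the log2 scale (edgeR, adjusted p = 4.9e-08). Nxph1, a secreted ligand of neurexins, held 71.6, 20.3, 25.4 and 41.8 against 251 to 332 (-2.99 ± 0.37 (SE), edgeR, adjusted p = 2.0e-06). Gad1, which makes GABA, had no TRAP insertion and 233 in Syn1Cre, at least 2.43-fold lower. It passed with TMM (edgeR, adjusted p = 0.027) and not with total insertions (adjusted p = 0.053), nor without any 1 of the TRAP animals (adjusted p from 0.061 to 0.078). Gad2, with 1 TRAP insertion, and the vesicular transporter Slc32a1, with none, did not pass.

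Astrocyte loci were lower too, and the size depended on Syn1Cre animal 5. Their pooled share was 0.201% ± 0.052 (SD, n = 4) in TRAP and 0.405% ± 0.191 (SD, n = 6) in Syn1Cre, a ratio of 0.497. Without animal 5 the Syn1Cre share was 0.329% ± 0.041 (SD, n = 5) and the ratio 0.612, and TRAP still lay below every Syn1Cre animal. Of 26 members 20 were tested, 3 were lower under both scalings (1.89% of all loci were with TMM and 0.701% with total insertions), none was higher, and 19 lay below the median of all loci. Aldh1l1, Fgfr3, Hes5, Apoe, Mlc1 and Notch1 had too few insertions. Without Syn1Cre animal 5, 5 members were lower (445 of 11420 loci were), and without Syn1Cre animal 4 only 1 (71 of 8157 loci).

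Sox2, the SoxB1 factor of astrocytes and progenitors, lies at chr3:34649995-34652461. It held 89.5, 40.5, 50.9 and 125 CPM in TRAP, from 12 insertions, and 374, 425 and 911 in the lowest, median and highest Syn1Cre animal. Each TRAP value was under a level of 374 that every Syn1Cre animal reached. With edgeR this gave -3.04 ± 0.41 (SE) on the log2 scale, adjusted p = 1.3e-05, or -2.82 without Syn1Cre animal 5. Slc1a3, the glutamate transporter GLAST, held 125, 40.5, 0 and 41.8 against 159 to 790.5 (-2.66 ± 0.64 (SE), edgeR, adjusted p = 0.021). Without TRAP animal 2, 3 or 4, or without Syn1Cre animal 4, Slc1a3 no longer passed (adjusted p between 0.058 and 0.093). Nfia, a nuclear factor of gliogenesis that neurons also express, held 1218, 1033, 1246 and 1588 against 1453 to 3719 with overlap (-0.98, edgeR, adjusted p = 0.014). Its log2 fold change without Syn1Cre animal 5 was -0.73 and still passed, while it was -0.26 and did not pass against Syn1Cre animals 1 to 3 (edgeR, adjusted p = 0.081). Without Syn1Cre animal 4 or 6 Nfia did not pass either (-0.88 and -0.91). Gjb6, a connexin, had no TRAP insertion and did not pass (edgeR, adjusted p = 0.12). Gfap and Aqp4 held 1 TRAP insertion each.

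For oligodendrocyte loci the pooled shares of 0.051% ± 0.013 (SD, n = 4) in TRAP and 0.077% ± 0.020 (SD, n = 6) in Syn1Cre overlapped, a ratio of 0.662, or 0.740 without Syn1Cre animal 5. Of 8 tested members 1 was lower, against 1.89% of all loci. This was Qk, a regulator of RNA in glia that astrocytes also express. It held 107, 60.8, 25.4 and 83.6 CPM in TRAP against 242 to 656 in Syn1Cre (log2 fold change -2.53 ± 0.45 (SE), edgeR, adjusted p = 0.00089). Olig2, Sox10, Nkx2-2 and Myrf had no TRAP insertion and were too sparse to test. At Cspg4, a proteoglycan of precursor cells, all TRAP animals lay above Syn1Cre, at 89.5, 101, 76.3 and 83.6 against a Syn1Cre median of 41.4, without passing. Such non-overlap was found at 4.03% of all loci. For microglia and endothelium the shares were 0.026% and 0.023% and overlapped. Among its 6 tested members Aif1 and Flt1 held the most TRAP insertions, 11 and 10. With edgeR 0 of them passed under either scaling and 1 had an unadjusted p under 0.05, and DESeq2 called 0.

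Lists for forebrain outside the cortex were described because the TRAP source was whole forebrain. Striatal loci had a pooled share of 0.346% ± 0.033 (SD, n = 4) in TRAP and 0.254% ± 0.014 (SD, n = 6) in Syn1Cre, a ratio of 1.36 without overlap. Of 8 tested members 1 was higher, against 0.173% of all loci. This was Foxp1, a forkhead factor of striatal neurons that deep-layer cortical neurons also express. It held 1504, 1986, 1729 and 2257 CPM in TRAP against 822, 958 and 1133 in the lowest, median and highest Syn1Cre animal (log2 fold change 0.67 ± 0.14 (SE), edgeR, adjusted p = 0.0067). Foxp1 gave 304 of the list's 577 TRAP insertions and Meis2 207. The other members were sparse: Drd1 held 7 TRAP insertions, Drd2, Penk and Tac1 1 each, and Adora2a, Isl1 and Six3 none. Without TRAP animal 2 or 4 Foxp1 did not pass (adjusted p = 0.11 and 0.056), nor with rows of 1 read removed (0.15) or positions counted 5 or more times removed (0.057). For thalamus and hypothalamus the shares of 0.094% and 0.108% overlapped, and 0 of 7 tested members passed with edgeR under either scaling, 2 having an unadjusted p under 0.05, while DESeq2 called 0. Without Syn1Cre animal 5, 2 of 8 were lower, against 445 of 11420 loci. Rora, a nuclear receptor, held 133 TRAP insertions and Slc17a6, a vesicular glutamate transporter, 12. The part of striatal or thalamic cells in the TRAP libraries was not tested.

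**Figure D3:**
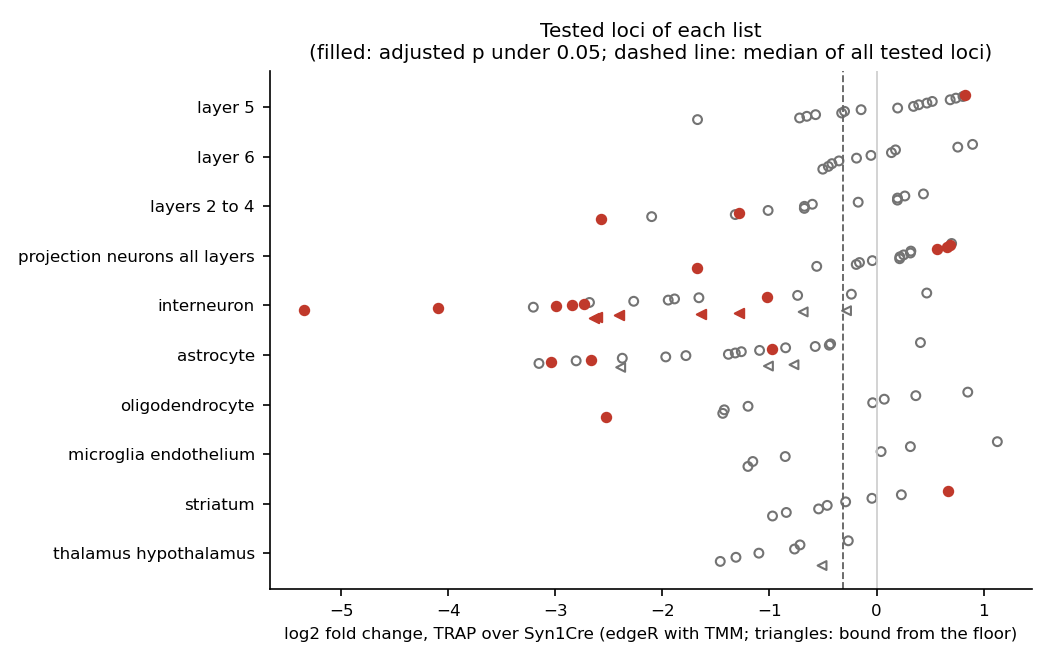
Log2 fold change (TRAP over Syn1Cre, edgeR with TMM) of every tested locus in 10 gene lists, filled where adjusted p was under 0.05; triangles are bounds for loci without a TRAP insertion and the dashed line is the median of all tested loci, -0.31. Filled points to the right of 0 are in the layer 5, projection neuron and striatum lists, and 11 of the 22 tested interneuron loci are filled to the left.

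Beyond the lists, the 10 highest loci among those that passed without overlap, with a mean level at or above the median locus, were Ints12, Ddc, Thbd, Nrip3, Lonrf1, Akap12, Ankrd40, Gucy1a1, Pex5l and Ldb2. Ints12, a subunit of the Integrator complex, held 71.6, 101, 76.3 and 125 CPM in TRAP and 9.25 to 17.6 in Syn1Cre, from 15 TRAP insertions (log2 fold change 2.44 ± 0.47 (SE), edgeR, adjusted p = 0.0023). Ddc, aromatic amino acid decarboxylase, followed at 1.96 with 11 TRAP insertions and levels of 35.8, 40.5, 76.3 and 167 (edgeR, adjusted p = 0.048). Ints12 and Ddc passed the filter on low counts only through the TRAP animals, where a single insertion already gives a high CPM. Such sparse loci could hardly come out other than higher, so their rank is no evidence of a difference. Pex5l, a regulator of HCN channels at chr3:32947926-33143302, rested on 146 insertions, at 806, 973, 738 and 1003 CPM against 361 to 430.0 (0.87 ± 0.16 (SE), edgeR, adjusted p = 0.0013). It passed with the thinned Syn1Cre animals too (1.20), as did Ldb2 (1.09), and without TRAP animal 2 it missed the threshold (0.70, adjusted p = 0.052). Gucy1a1, a subunit of the nitric oxide receptor guanylate cyclase, held 269, 405, 229 and 251 against 102 to 157 (1.01, edgeR, adjusted p = 0.029). Thbd, thrombomodulin, Nrip3, Lonrf1, Akap12, a kinase anchoring protein, and Ankrd40 lay between 1.06 and 1.42. Ints12 and Ldb2 passed with each animal left out in turn. The other 8 missed the threshold without TRAP animal 2, among them Nrip3 (1.18, adjusted p = 0.072) and Gucy1a1 (0.68, adjusted p = 0.28), and Ddc missed it without any 1 of the TRAP animals.

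The 10 lowest loci were Dlx2, Dlx5, Sp9, Rtl1, Maf, Sox1, Pde3a, Kcnip1, Ago1 and Plpp3, and 5 of them, Dlx2, Dlx5, Sp9, Rtl1 and Maf, had no TRAP insertion. Rtl1, an imprinted retrotransposon-derived gene, held 55.5 to 152 CPM in Syn1Cre and was at least 5.22-fold lower in TRAP. Sox1, a SoxB1 factor of progenitors, held 1 TRAP insertion, a ratio of 23.3 with a 95% counting interval of 4.18 to 921. Kcnip1, a potassium channel subunit of interneurons, held 2 TRAP insertions against 763 in Syn1Cre, a ratio of 11.9 with an interval of 3.30 to 98.3. Plpp3, a lipid phosphatase high in astrocytes, held 89.5, 0, 0 and 83.6 CPM against 209.5 to 874, the highest in Syn1Cre animal 5 (-3.36, edgeR, adjusted p = 0.0028). Without that animal the log2 fold change of Plpp3 was -2.96. Of the 10, Ago1 missed the threshold without TRAP animal 2, 3 or 4 or Syn1Cre animal 2, 4 or 6, and the other 9 passed with each animal left out. Over all loci, 15 of the 197 lower loci had no TRAP insertion and 28 had 1 to 3. Loci without a TRAP insertion passed the filter through Syn1Cre counts alone and could only come out lower. Those with insertions in only some TRAP animals also needed Syn1Cre counts to pass it.

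In 50 kb windows, which need no gene annotation, 208 of 19678 passed with edgeR and TMM (1.06%), 18 higher (0.0915%) and 190 lower (0.966%). With total insertions 182 passed (0.925%), 98 higher (0.498%) and 84 lower (0.427%). After thinning, 51 of 231 windows passed (22.1%), 17 higher (7.36%) and 34 lower (14.7%). Windows of 250 kb gave 59 higher and 78 lower among 8567. Without Syn1Cre animal 5, 494 windows passed, and without TRAP animals 1, 2, 3 and 4 the count was 135, 87, 91 and 110. Without Syn1Cre animals 2, 4 and 6 it was 115, 107 and 108.

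The highest window was chr6:16300001-16350000, which holds no protein-coding gene, with Tfec the nearest at 481 kb. It held 215, 223, 178 and 376 CPM in TRAP against 40.2 to 47.5 in Syn1Cre (log2 fold change 2.02 ± 0.28 (SE), edgeR). The next, chr3:149900001-149950000, lies 911 kb from Adgrl2 and held 215, 182, 254 and 167 against 27.7 to 61.5 (1.77). Of the 8 highest windows 4 held no protein-coding gene, the others being chr4:13400001-13450000, with Runx1t1 at 293 kb, and chr13:28750001-28800000, with Sox4 at 149 kb. The remaining 4 lay in Thbd and Cd93, L3mbtl4, Galntl6 and Tmem108. Of the 8, the windows near Tfec and Adgrl2 passed with each animal left out, and the other 6 missed the threshold without TRAP animal 1. The 8 lowest windows had no TRAP insertion in any animal. They reached the test through Syn1Cre counts alone and could only come out lower. They lay at Sp9 and Cir1 (at least 5.77-fold lower), Gjb2 and Gjb6 (5.95), Rtl1 (5.08), Erbb4 (4.41), Celf2 (3.85) and Sox6 (3.47), and at chr3:34300001-34350000 (4.92) and chr2:45900001-45950000 (3.22), which hold no protein-coding gene. The windows at Gjb2 and Gjb6 and at Sox6 missed the threshold without any 1 of the TRAP animals. The window at Gjb2 and Gjb6, connexins of astrocytes, had a Syn1Cre median of 70.7 CPM and 296 in animal 5, without which it was at least 3.82-fold lower.

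The surroundings of the 4 marker start sites were summed for each animal. Within 200 kb of the Fezf2 start TRAP held 949, 1033, 1094 and 1128 CPM, a mean of 1051 ± 78.5 (SD, n = 4), and Syn1Cre 466 ± 69.4 (SD, n = 6), a ratio of 2.26. The TRAP excess there was spread over several 20 kb bins: 230.2 ± 59.1 (SD, n = 4) in the first 20 kb downstream, against 125 ± 24.2 (SD, n = 6) in Syn1Cre, and 89.2 ± 42.8 (SD, n = 4) at 60 to 80 kb upstream. Around Sox2 TRAP held 153 ± 25.2 (SD, n = 4) and Syn1Cre 1016 ± 406 (SD, n = 6), 6.66 times as much, or 5.60 times without Syn1Cre animal 5. A second Syn1Cre peak lay at 80 to 100 kb upstream of Sox2, at 168 ± 73.2 (SD, n = 6). Around Dlx1 the values were 292 ± 72.9 (SD, n = 4) and 744 ± 98.7 (SD, n = 6), with the TRAP insertions outside the first 20 kb downstream. Around Bcl11b they were 590 ± 184 (SD, n = 4) and 582 ± 27.7 (SD, n = 6). These regions hold neighbouring genes, so their sums are not those of the loci.

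**Figure D4:**
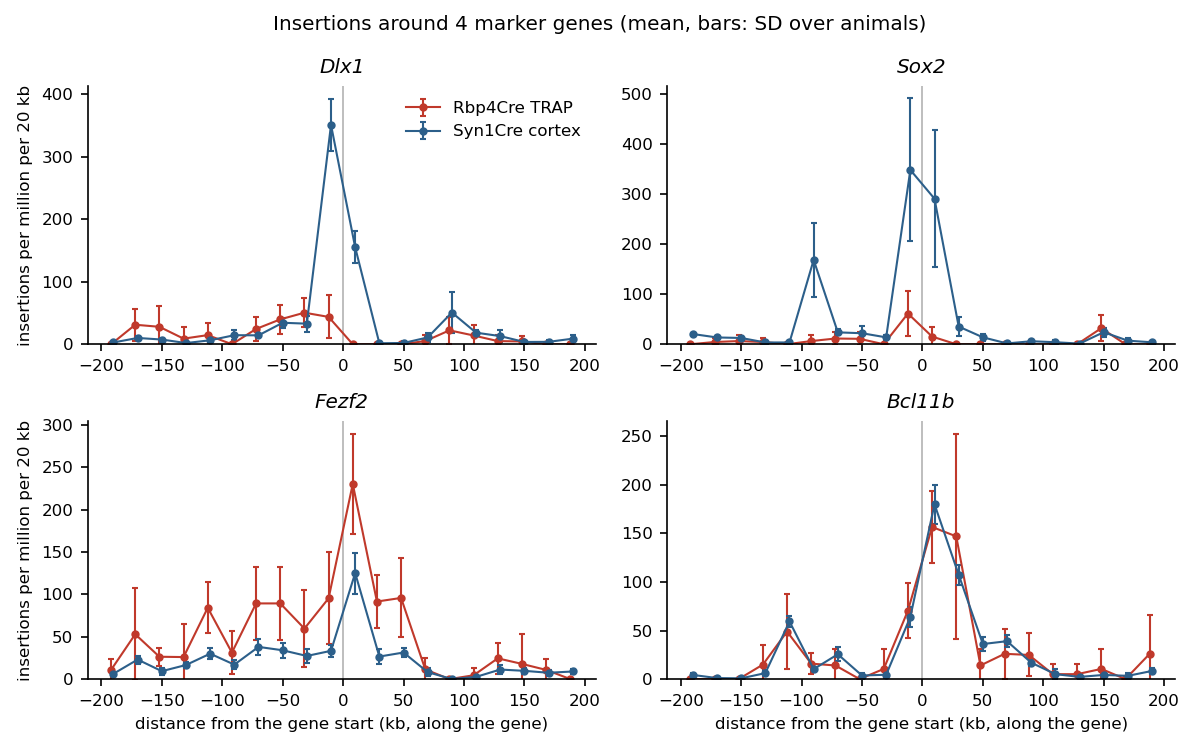
CPM in 20 kb bins within 200 kb of the start of Dlx1, Sox2, Fezf2 and Bcl11b, along the gene's direction; points are means over 4 TRAP or 6 Syn1Cre animals and bars SD. Syn1Cre peaks at the starts of Dlx1 and Sox2 have little TRAP signal, TRAP is higher over much of the Fezf2 region, and both curves run together at Bcl11b.

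Sequence fixes where an insertion can land. TTAA, the same on both strands, was found in 52.3% of 31396 RefSeq promoter windows of GRCm38.p6, each with 250 bases before a gene start and 50 after it. Of 28176 such sites, 1157 carried a TRAP insertion and 8408 a Syn1Cre insertion at exactly the site, and no insertion lay 1 or 2 bases off. The promoter windows of Dlx1 and Fezf2 hold no TTAA, and the 1 site of Sox2 had no insertion in either group, so the counts at these loci come from outside the core promoter. The 3 windows below, of neuronal transcription factors, hold sites that were hit in both groups and are shown for that reason, 5′ to 3′ along the gene with TTAA in capitals:

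Bcl11b, chr12:108003365-108003664, minus strand: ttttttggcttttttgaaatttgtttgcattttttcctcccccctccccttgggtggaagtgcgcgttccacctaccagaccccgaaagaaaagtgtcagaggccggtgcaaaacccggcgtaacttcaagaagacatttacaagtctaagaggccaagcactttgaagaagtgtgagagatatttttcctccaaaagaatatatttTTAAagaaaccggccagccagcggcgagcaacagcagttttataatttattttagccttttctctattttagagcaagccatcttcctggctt

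Neurod6, chr6:55681214-55681513, minus strand: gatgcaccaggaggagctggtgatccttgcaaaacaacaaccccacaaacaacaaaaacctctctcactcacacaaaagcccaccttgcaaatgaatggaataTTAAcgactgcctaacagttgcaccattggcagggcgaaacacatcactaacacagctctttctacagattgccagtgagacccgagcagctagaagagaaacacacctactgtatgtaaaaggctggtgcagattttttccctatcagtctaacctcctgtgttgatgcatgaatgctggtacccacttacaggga

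Tbr1, chr2:61804203-61804502, plus strand: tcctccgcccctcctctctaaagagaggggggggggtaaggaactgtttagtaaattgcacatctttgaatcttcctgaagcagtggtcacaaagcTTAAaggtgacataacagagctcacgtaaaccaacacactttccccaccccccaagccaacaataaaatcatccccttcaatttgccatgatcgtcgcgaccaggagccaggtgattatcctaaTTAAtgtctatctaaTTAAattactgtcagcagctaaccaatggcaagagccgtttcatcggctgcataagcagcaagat

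The Bcl11b site begins 43 bases before the start and was hit 1 time in TRAP and 38 times in Syn1Cre. In Neurod6 the site 147 bases before the start was hit 3 times in 2 TRAP animals and 23 times in Syn1Cre. Tbr1 has 3 sites. The one 154 bases before the start was hit 2 times in TRAP and 29 times in Syn1Cre, and those at 30 and 15 bases 8 and 16 times in Syn1Cre and not in TRAP. At these numbers a difference between the groups was not detectable.

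Placement relative to genes differed between the groups. Inside protein-coding genes lay 52.7%, 52.3%, 52.6% and 53.5% of the insertions of TRAP animals 1 to 4, and 57.1% to 60.8% in Syn1Cre. The means were 52.8% ± 0.503 (SD, n = 4) and 58.3% ± 1.45 (SD, n = 6), with no overlap (exact permutation test, two-sided, p = 0.00952, adjusted p = 0.0127). Without Syn1Cre animal 5, which had the highest share, the groups did not overlap either. Among insertions inside 1 gene with a known strand, the share on the gene's own strand was 54.6% ± 0.702 (SD, n = 4) in TRAP and 52.2% ± 0.804 (SD, n = 6) in Syn1Cre, again without overlap (exact permutation test, p = 0.00952, adjusted p = 0.0127). Within 1 kb of a gene start lay 5.35% ± 0.118 (SD, n = 4) and 5.21% ± 0.481 (SD, n = 6), which overlapped (exact permutation test, p = 0.581). With each position counted once per animal the shares near starts were 5.12% and 3.53% and did not overlap, while with the Syn1Cre animals also thinned they were 5.12% and 5.05% and overlapped. Chromosomes 6 and 12 were the only ones of 19 whose shares did not overlap, both higher in TRAP, at 6.26% against 6.03% and 5.22% against 5.04%.

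**Figure D5:**
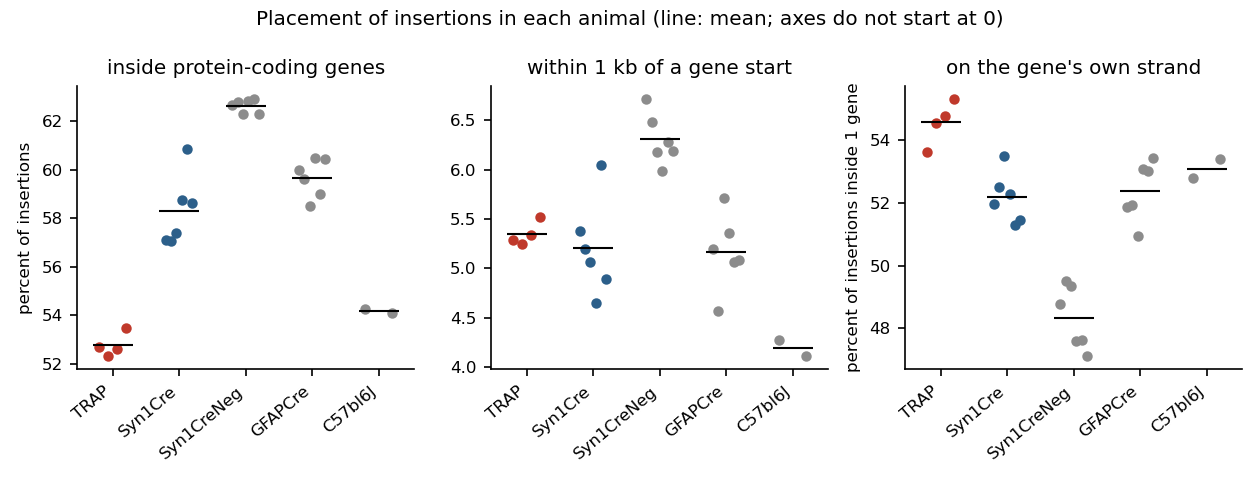
Percent of each animal's insertions inside protein-coding genes, within 1 kb of a gene start, and on the gene's own strand, for TRAP, Syn1Cre and 3 further groups; points are animals, lines means, and the axes do not start at 0. TRAP animals lie below all Syn1Cre animals inside genes and above them on the own strand.

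Insertions recurred at the same positions. Of the positions hit in TRAP, 132880 were hit in 1 animal, 10296 in 2, 2379 in 3 and 734 in all 4. A Syn1Cre insertion at the same position was found for 65.2% of the first and for 96.4%, 99.8% and 99.9% of the others. In each TRAP animal 70.4% to 72.7% of positions were also hit in Syn1Cre. The most rows seen at 1 position, strand and barcode were 2 in each TRAP animal and 5 to 10 in the Syn1Cre animals. Repeated counts were more frequent in Syn1Cre, whose tables also held more insertions. TRAP animal 1 had 54022 distinct positions among 55841 insertions, and Syn1Cre animal 1 had 563369 among 737190. How these differences in repeated counts bear on the ratios between the groups was not tested.

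Levels in the other groups of the series place both sides of the comparison. At Fezf2, the TRAP range of 233 to 459.7 CPM lay above the 120.2 to 184 of Syn1Cre, the 93.2 to 168 of the 6 Cre-negative Syn1CreNeg animals, the 129 to 161 of the 6 GFAPCre animals and the 137 to 149.5 of the 2 C57bl6J animals, which received Cre-independent viruses. Ldb2 was likewise higher in each TRAP animal than in any of these, where the highest was 754. At Dlx1, TRAP held 0 to 83.6, Syn1CreNeg 43.6 to 95.7, GFAPCre 49.0 to 75.0, C57bl6J 226 to 249.7 and Syn1Cre 290.3 to 416. At Sox2 all groups lay above TRAP, with 282 to 309 in C57bl6J, 309 to 790.4 in GFAPCre and 857 to 1277 in Syn1CreNeg. At the layer 6 loci the C57bl6J shares were 0.424% and 0.430%, near the TRAP mean of 0.428%, and at the striatal loci 0.336% and 0.379%, within the TRAP range of 0.305% to 0.380%. The share of insertions inside genes was nearest to TRAP in C57bl6J, at 54.1% and 54.3%. These further groups were not tested against TRAP.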

How the data were processed

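Calling card insertions were read as deposited. Each line of a deposited table is 1 insertion with its strand and its raw read count, per the columns of the files, and the submitters' processing notes name Novoalign, Bowtie2 and mm10 without versions or roles. Rows on chromosomes 1 to 19 were counted as insertions per animal, gene locus and 50 kb window; read counts entered only an alternative. The label's replicate number was taken as the animal. Whether replicates came from separate litters or batches is not given in the sources used here, so p-values measure the spread between these tables. The 2 TRAP libraries of an animal share a barcode and could not be separated, and 77 samples whose labels pool several groups were left unassigned.

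Gene coordinates came from RefSeq for GRCm38.p6. Loci and windows were tested with edgeR 4.0.16 (quasi-likelihood, TMM, filterByExpr, Benjamini-Hochberg, threshold 0.05), with DESeq2 1.42.0 as an alternative, and shares with exact permutation tests in SciPy 1.17.1. An SE of a log2 fold change is its size divided by the square root of the F statistic. The edgeR fits were also run on simulated data, where a limit on false calls was required of total-insertion scaling only. The simulation therefore does not vouch for the calls of the TMM fit. Other alternatives were total insertions, no filter, distinct positions, rows with at least 2 reads, Syn1Cre animals thinned to 42110 insertions, gene bodies without flanks, 250 kb windows, Syn1Cre animals 1 to 3 or 4 to 6, the replicate block and each animal left out.

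Members and lists were chosen with earlier results of these data known. Named were list members past the threshold, the 4 markers, and the 10 highest and 10 lowest loci and 8 highest and 8 lowest windows that passed without overlap of TMM-scaled levels, with a mean at or above the median, skipping overlapping loci and windows within 200 kb. Other members were named after their values were seen, and 1 member of the projection neuron list and 1 of the interneuron list are counted in the lists but not reported here by themselves, although the first of these passed the threshold. Same-numbered animals of the groups did not deviate together (correlations between -0.0089 and 0.0145), so the numbers do not pair them.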

Additional observations from a re-analysis of the deposited data

Results flagged for a closer look

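In groups of 4 or 6 animals, 23 of 140 values stood apart from the rest of their group by Dixon's criterion. Chance meets it in about 1 in 20 groups of independent, normally distributed values. The 140 values share loci, and a lone insertion among zeros always meets the criterion. The 23 are therefore not to be set against that rate. Most lay in Syn1Cre animal 5. That animal had the highest Syn1Cre share of insertions at the loci of astrocytes (0.787%), layers 2 to 4 (0.366%), thalamus and hypothalamus (0.127%) and oligodendrocytes (0.118%). It was also highest in CPM at Nfia (3719), Sox6 (1225), Sox2 (911), Plpp3 (874), Slc1a3 (790.5), Qk (656) and Dlx2 (155), and in the 50 kb window of Gjb2 and Gjb6 (296). The loci Sox2, Slc1a3, Qk, Plpp3, Sox6 and Dlx2 stayed lower in TRAP without it. Syn1Cre animal 6 was highest at Sp9 (135 CPM) and in the window that holds Sp9 (139 CPM), and Syn1Cre animal 3 had the highest layer 5 share (0.251%).

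Among the TRAP animals, animal 2 had the lowest interneuron share (0.134%, against 0.171% to 0.175% in the others) and the lowest level in the window near Runx1t1 (101 CPM). Animal 4 was highest at Ankrd40 (502 CPM) and in the window of Thbd and Cd93 (209 CPM). A single insertion stood apart at Sox1, Pde3a and Ago1 in animal 1 (17.9 CPM each) and at Dlx6 in animal 3 (25.4 CPM), with 0 in the other TRAP animals.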

How the results depend on the processing

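The count of loci past the threshold, 215 in the main setting, was in separate fits 127 with total insertions, 755 without a filter, 496 with distinct positions, 110 with Syn1Cre thinned, 97 with thinned distinct positions and 130 without flanks. With the replicate block on animals 1 to 4 it was 119, against 193 without the block. Leaving out 1 animal gave 90 to 474. It was 182 with DESeq2, 218 with TMM paired for singletons, 265 with at least 2 reads and 159 without positions counted 5 or more times. The removal of such positions, singleton pairing and the thinned distinct shares were chosen after seeing the data. The count of windows, 208 in the main setting, was 1663 without a filter, 387 with distinct positions, 51 and 41 with Syn1Cre thinned, as rows and as distinct positions, 137 at 250 kb, 115 against Syn1Cre animals 1 to 3, 334 on animals 1 to 4 without the block and 253 with it, and 87 to 494 with 1 animal left out. Fewer loci and windows reach the filter after thinning, and the cause of the other shifts was not tested. The share inside genes differed by -4.41 and -6.63 percentage points against Syn1Cre animals 1 to 3 and 4 to 6, and the own-strand share by 1.91 and 2.89, where the smallest p that exact permutation allows is 0.0571. Near starts the difference was 1.59 points with distinct positions. The log2 ratio of the layers 2 to 4 share was 0.32 with distinct positions. Bcl11b reversed to 0.28 with distinct positions, 0.0042 against Syn1Cre animals 1 to 3 and 0.027 against animals 4 to 6. Over the named loci and the alternatives run, 732 values kept their side of the threshold, 119 lost it, 7 gained it and 3 reversed. Depth limited TRAP: the median SE of a tested locus was 0.61 on the log2 scale, and 167 tested loci had no TRAP insertion.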
